A study of Mus musculus with 32 samples.

Results

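The 76 genes described here carry Mrpl or Mrps names, which were given to proteins of the mitochondrial ribosome, and all but Mrps36 encode such proteins. They were chosen by name: every platform symbol that starts with Mrpl or Mrps followed by a digit, with 1 probe set per gene, the most variable over the arrays of the experiment. The platform listed 78 such symbols, and 76 had a probe set of their own among the 18194 genes tested. Mrpl30 and Mrpl53 were only on probe sets that also name another gene and were not analysed here. All 76 members entered every fit, since no filter on low values was used. They were read by 156 probe sets, and 42 members had several.

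The mitochondrial ribosome translates the few proteins that mitochondrial DNA encodes, which are core subunits of the respiratory chain and of ATP synthase. Its large subunit forms peptide bonds and its small subunit reads the messenger RNA. All of its proteins are encoded in the nucleus and imported, some inherited from the bacterial ancestor and others found in mitochondria alone. Proliferating lymphocytes depend on mitochondrial translation, as is known from other work.

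The data were 32 Affymetrix mouse arrays from 3 mouse experiments on Ebf1, a transcription factor that B-cell development requires. In the pre-B line 230238, 3 samples transduced with pMIG carrying Ebf1-Engrailed, Ebf1 fused to a repressor domain, were set against 3 with empty pMIG. All 6 were sorted for GFP, 500000 cells each, and came from a single cell line. In the time course, Ebf1-/- fetal liver cells (E14.5) grown on OP9 stroma carried Ebf1-ER, which becomes active when 0.1 µM 4-hydroxytamoxifen is given. These cells were also GFP-sorted, and 2 arrays were made at each of 0, 6, 12 and 24 h. In the tumour experiment, enlarged lymph nodes of 8 Ebf1+/-Pax5+/- C57BL/6 mice of about 30 weeks, 2 arrays each, were set against 2 arrays of sorted pro-B cells of wild-type C57BL/6 mice. The lymph node cells were sorted for living cells and not for a cell type, 1000000 per sample.

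Values are log2 expression centred per probe set, and they give differences between samples of an experiment and no levels. The median of every probe set is 0 over the arrays of the line and over those of the time course. In the tumour experiment that holds for 24.0% of the probe sets. Array medians lay between -0.01 and 0.05. The number of arrays limits the precision. The labels do not say whether replicates came from separate cultures, so p-values reflect the spread among the samples given here and that spread may be technical. In bulk samples, fewer cells of a type and less RNA per cell cannot be told apart. The 2 samples labelled wild-type pro-B had Ebf1 values of -4.66 and -4.20, against -0.32 to 0.44 over the 16 lymph node arrays. The median of 9 myeloid markers was 2.65 and 3.07 in those samples, against -0.84 to 0.39 over the lymph node arrays. The Ebf1 value and the myeloid markers went against the label, but the early B markers as a list did not. The median of 10 such markers, Ebf1 included, was 0.54 and 0.30 in those samples, against -0.36 to 0.02 in the nodes of 7 mice and 0.57 and 0.64 in the arrays of mouse 292. Of the 10, Ebf1 was called higher and Rag2 lower in the lymph nodes, with a median change of -0.54 over the list. In the time course, Ebf1 was 0.67 and 0.71 at 0 h and at most 0.10 at any later time, and in the line it was -1.45 to -0.49 with Ebf1-Engrailed, against 0.49 to 0.87 with empty vector. Which part of the gene or of the transgenes its probe set reads was not analysed here.

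The promoters of 6 members are printed as examples of the letters before the start in members with different behaviour. They come from RefSeq, build GRCm38.p6. Each is 160 bases on the plus strand, 5′ to 3′, and capitals mark a match to a searched motif. Only matches inside the printed stretch are named here, and Mrpl45 (NRF1 at 16), Mrps27 (YY1 at 15) and Mrpl27 (ETS at -55) have others outside it. Mrpl12, which binds translation factors on the ribosomal stalk and rose by 6 h, has an NRF1 match that starts 81 bases before the start. Mrpl45, of the site where the human ribosome meets the inner membrane, was called higher at 24 h and not before, and has NRF1 matches at -120 and -38. Mrps27, a small-subunit protein, has an ETS match at -48. Mrpl36, a protein of the large subunit, has a YY1 match at -30 and an E-box at -43. Mrpl24, which was called lower at 6 and 12 h, has no match. Mrpl27, called higher from 12 h, is shown from -250 to -91 since its EBF1 match, the only one among the members, lies at -231.
Mrpl12, chr11:120484477-120484636: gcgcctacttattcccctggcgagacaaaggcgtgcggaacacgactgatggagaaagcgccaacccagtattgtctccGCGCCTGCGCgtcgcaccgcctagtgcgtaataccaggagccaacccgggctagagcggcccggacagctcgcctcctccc
Mrpl45, chr11:97315556-97315715: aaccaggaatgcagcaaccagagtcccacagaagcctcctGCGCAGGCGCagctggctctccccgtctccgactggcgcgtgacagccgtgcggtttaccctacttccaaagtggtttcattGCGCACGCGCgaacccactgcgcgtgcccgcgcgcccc
Mrps27, chr13:99344626-99344785: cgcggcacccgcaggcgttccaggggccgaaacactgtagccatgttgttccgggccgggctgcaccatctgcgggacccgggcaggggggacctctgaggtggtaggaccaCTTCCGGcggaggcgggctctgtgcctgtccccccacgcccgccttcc
Mrpl36, chr13:73330849-73331008: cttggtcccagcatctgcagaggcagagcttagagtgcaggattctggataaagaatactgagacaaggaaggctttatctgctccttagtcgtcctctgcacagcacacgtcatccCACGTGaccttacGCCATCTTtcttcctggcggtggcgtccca
Mrpl24, chr3:87919384-87919543: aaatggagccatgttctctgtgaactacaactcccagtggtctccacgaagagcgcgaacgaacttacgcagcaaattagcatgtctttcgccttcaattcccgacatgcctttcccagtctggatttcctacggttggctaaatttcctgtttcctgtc
Mrpl27, chr11:94653541-94653700: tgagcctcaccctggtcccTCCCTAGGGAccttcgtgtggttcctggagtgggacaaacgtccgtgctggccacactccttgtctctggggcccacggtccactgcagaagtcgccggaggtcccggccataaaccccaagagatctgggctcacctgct

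Over the whole 300-base window, from 250 bases before to 50 after the start, 67 of the 76 members were matched to a promoter. Both strands were searched for 5 motifs. The NRF1 motif (GCGCA, any base, GCGC) was in 12 members, 17.9% of 67, beside 8.63% of the 14369 genes on the array with a promoter. The ETS motif CCGGAAG, which GABPA binds, was in 25 members or 37.3%, beside 15.03% of all genes. The YY1 motif AAGATGGC was in 12 members or 17.9%, beside 4.09%. The E-box CACGTG, which MYC binds, was in 5 members or 7.46%, beside 10.3%. The EBF1 motif (TCCC, any 2 bases, GGGA) was in 1 member or 1.49%, beside 1.28%. None of the 5 was found in 24 members. Of the 67, 58 were called higher at 24 h of the time course and 9 were not. The ETS motif was in 19 of the 58 and 6 of the 9, and NRF1 in 10 and 2. YY1 was in 12 and 0, the E-box in 5 and 0 and EBF1 in 1 and 0. Whether a motif goes with the change of a member was not tested. The ETS motif ends and the YY1 motif begins with AAG, so a match to each can share those letters. A match is a description of the letters and not a site of binding. For 3 members with more than 1 promoter entry, a match in any entry was counted.

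The time course asked how transcripts change once Ebf1 activity is restored in cells that lack it, and most of the ribosomal protein genes rose. At 6 h, 59 of 76 members were called higher than at 0 h, beside 18.6% of all genes, and 2 were called lower, beside 16.4%. At 12 h, 61 were higher, beside 19.9% of all genes, and 2 were lower, beside 19.9%. At 24 h, 67 were higher, beside 21% of all genes, and 0 were lower, beside 17.8%, where 2 were lower at an unadjusted p under 0.05. The median change over the members was 0.70, 0.72 and 0.69 on the log2 scale at 6, 12 and 24 h, about 1.61-fold at 24 h, beside 0.03, 0.03 and 0.05 over all genes. A call is an adjusted p under 0.05 by limma with Benjamini-Hochberg over all 18194 genes. The 3 comparisons share the same 0 h arrays.

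**Figure D1:**
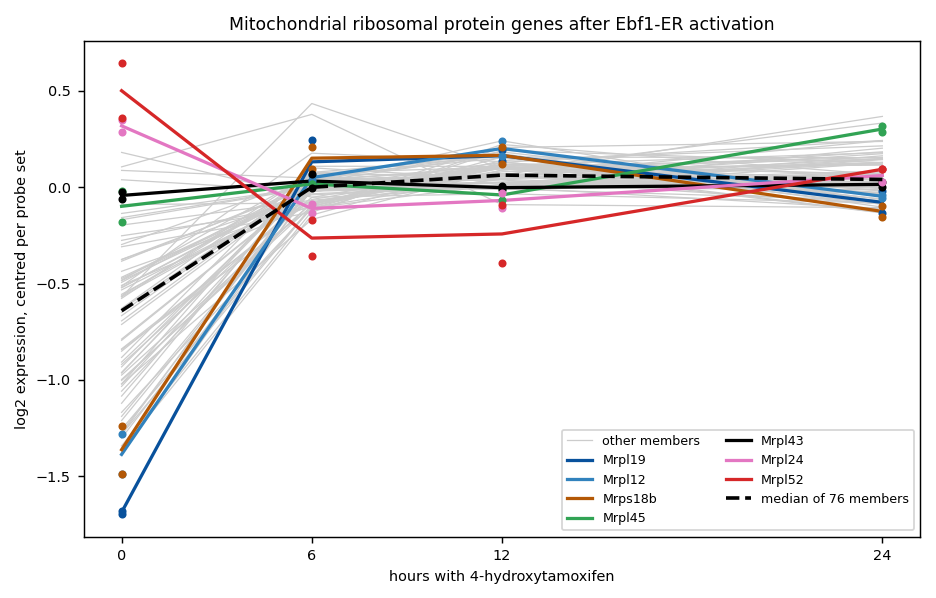
Centred log2 expression (vertical axis) of the 76 members against hours with 4-hydroxytamoxifen, as means of the 2 arrays at each time. Coloured lines are 7 named members with points for the single arrays, grey lines the other members and the dashed line the median; the 2 arrays at 0 h have medians of -0.60 and -0.73 and all later ones lie between -0.00 and 0.07.

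Most of the change was present at 6 h. The median of the members was -0.60 and -0.73 in the 0 h arrays, -0.00 and 0.01 at 6 h, 0.05 and 0.07 at 12 h, and 0.03 and 0.05 at 24 h. Both 0 h arrays lay below all 6 later arrays in 66 of the 76 members, beside 23.3% of all genes. They lay above all 6 later arrays in 2 members, and the share of all genes that did so was not computed. Among the 67 members higher at 24 h, the change at 6 h was 93.3% of that at 24 h in the median. Between 6 and 12 h, 0 members were called higher and 0 lower, beside 1.5% and 0.89% of all genes, with 6 higher and 1 lower at an unadjusted p under 0.05. The smallest adjusted p of limma was 0.144, for Mrps25. Between 12 and 24 h, 0 were called higher and 0 lower, beside 2.48% and 1.68%, with 4 higher and 6 lower at an unadjusted p under 0.05. With quantile-normalised arrays, 3 were higher between 6 and 12 h, beside 3.54% of all genes. Between 12 and 24 h, 1 was then higher, beside 4.89%, and 2 were lower, beside 4.79%. Mrpl17 (-0.00), Mrpl22 (0.00) and Mrps30 (-0.00) moved least between 6 and 12 h. Mrpl35 (-0.00), Mrpl34 (0.00) and Mrps36 (0.01) moved least between 12 and 24 h.

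In the large subunit, 26 of the 29 proteins with bacterial counterparts were called higher at 24 h, as were 17 of the 20 found in mitochondria alone. The share was 88.2% over all 76 members and 21% over all genes. Mrpl19, a core protein of the large subunit, was -1.70 and -1.68 at 0 h, 0.24 and 0.02 at 6 h, 0.14 and 0.19 at 12 h, and -0.02 and -0.14 at 24 h. The 0 h arrays stood far below all others and the later times overlapped. It rose by 1.61 ± 0.10 (limma SE) at 24 h, 3.05-fold, with an adjusted p of 2.33e-05. Its probe sets did not all do so: of 4, 3 were called higher, by 1.11 to 1.61, and the fourth read 0.09 (adjusted p 0.651). Mrpl1, the mobile stalk by which spent transfer RNA leaves, was -1.39 and -1.34 at 0 h, -0.05 and -0.24 at 6 h, 0.05 and 0.21 at 12 h, and 0.31 and 0.18 at 24 h, and rose by 1.60 ± 0.11 (adjusted p 2.66e-05 at 24 h). Mrpl49, which bacteria lack, rose by 1.44 ± 0.12 (adjusted p 7.44e-05).

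The stalk proteins, which recruit translation factors, did not move by the same amount. Mrpl12 was -1.28 and -1.49 at 0 h, 0.04 and 0.06 at 6 h, 0.24 and 0.16 at 12 h, and -0.06 and -0.04 at 24 h, so that 0 h lay below every later array. It rose by 1.34 ± 0.10 at 24 h, 2.53-fold, with an adjusted p of 3.97e-05. Its partner Mrpl10 was -0.07 and -0.24 at 0 h, against 0.10 and 0.20 at 24 h, and rose by 0.31 ± 0.10 (adjusted p 0.0399), a call of Mrpl10 that was lost in 7 of the 8 fits that leave out an array. Mrpl11, at the base of the stalk, rose by 0.86 ± 0.09 (adjusted p 0.000149). Of the proteins near the peptidyl transferase centre, Mrpl3 rose by 1.01 ± 0.11 (adjusted p 0.000208) and Mrpl2 by 0.57 ± 0.11 (adjusted p 0.00482). Mrps30 and Mrps18a, named for the small subunit but placed in the large one, rose by 0.45 ± 0.09 (adjusted p 0.00453) and 0.91 ± 0.10 (adjusted p 0.000217). Whether the members differ from one another in size of change was not tested.

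In the small subunit, 14 of the 16 proteins with bacterial counterparts and 9 of the 10 found in mitochondria alone were called higher at 24 h. These counts too stand beside 88.2% of all members and 21% of all genes. Mrps18b was -1.24 and -1.49 at 0 h, 0.10 and 0.21 at 6 h, 0.21 and 0.12 at 12 h, and -0.16 and -0.10 at 24 h. Here too both 0 h arrays lay below all the others, and the change at 24 h was 1.24 ± 0.11 (adjusted p 9.15e-05). Mrps25 rose by 1.47 ± 0.09 (adjusted p 1.9e-05), Mrps27 by 1.43 ± 0.10 (adjusted p 3.1e-05), Mrps28 by 1.38 ± 0.09 (adjusted p 1.95e-05) and Mrps5, which lines the path of the messenger RNA, by 1.35 ± 0.11 (adjusted p 7.08e-05). Mrps12, of the decoding centre, and Mrps7, of the head of the subunit, rose less, by 0.66 ± 0.10 (adjusted p 0.00153) and 0.68 ± 0.10 (adjusted p 0.00114). Mrps36, which is now known as a subunit of the 2-oxoglutarate dehydrogenase complex and not of the ribosome, rose by 0.51 ± 0.10 (adjusted p 0.00574).

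The members differed in when they were called. In all, 58 were higher at each of 6, 12 and 24 h. The share of all genes called higher at each of these times is not given here. Each time was set against the same 0 h arrays, so the calls are not independent. Mrps14 is among the 58, but its calls at 6 and 12 h were each lost in 7 of the 8 fits that leave out 1 array. Its call at 24 h was lost in 1 of them. Mrpl10, Mrpl14, Mrpl45, Mrpl48 and Mrps18c were called at 24 h alone, Mrpl27, Mrpl39 and Mrps9 from 12 h, and Mrps16 at 6 and 24 h. The 24 h calls of Mrpl10, Mrpl14 and Mrps16 were each lost in 7 of the 8 fits that leave out 1 array, and that of Mrpl45 in 1. Mrpl45 was -0.02 and -0.18 at 0 h, 0.02 in each array at 6 h, -0.02 and -0.06 at 12 h, and 0.32 and 0.28 at 24 h. The 24 h arrays stood above all 6 others, with a change from 0 h of 0.40 ± 0.09 (adjusted p 0.0103) and from 12 h of 0.34 ± 0.09, which did not pass (adjusted p 0.0932). Mrpl33, Mrpl43, Mrpl58, Mrpl9, Mrps21, Mrps33 and Mrps6 were not called at any time. Mrpl43 lay between -0.06 and 0.07 in all 8 arrays, with a change of 0.06 ± 0.08 at 24 h, and Mrpl33 (-0.15) and Mrps21 (-0.15) also read little. At 6 h, Mrps18c (0.01), Mrps21 (-0.04) and Mrpl33 (-0.06) were the nearest to no change.

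Mrpl24 and Mrpl52 were the members called lower at 6 and 12 h. Mrpl24, which lies near the exit of the peptide tunnel, was 0.29 and 0.35 at 0 h, -0.13 and -0.09 at 6 h, -0.03 and -0.11 at 12 h, and 0.09 and 0.03 at 24 h. The 0 h arrays lay above all later ones, and it fell by 0.43 ± 0.09 at 6 h (adjusted p 0.00641) and was 0.26 ± 0.09 lower at 24 h, where it did not pass (adjusted p 0.0525). Mrpl52 fell by 0.77 ± 0.14 at 6 h (adjusted p 0.00388) on the probe set chosen here. Its other 3 probe sets pointed the other way, with changes of 0.19 to 0.25 at 6 h that did not pass and of 0.30 to 0.45 at 24 h that all did. Probe sets of 1 gene were called in opposite directions at 24 h for Mrpl15 (5 higher and 1 lower of 8), Mrpl17 and Mrps9, and for Mrpl15 at 6 h too. On the probe sets chosen by the rule these 3 rose at 24 h, by 1.10, 0.75 and 0.56.

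**Figure D2:**
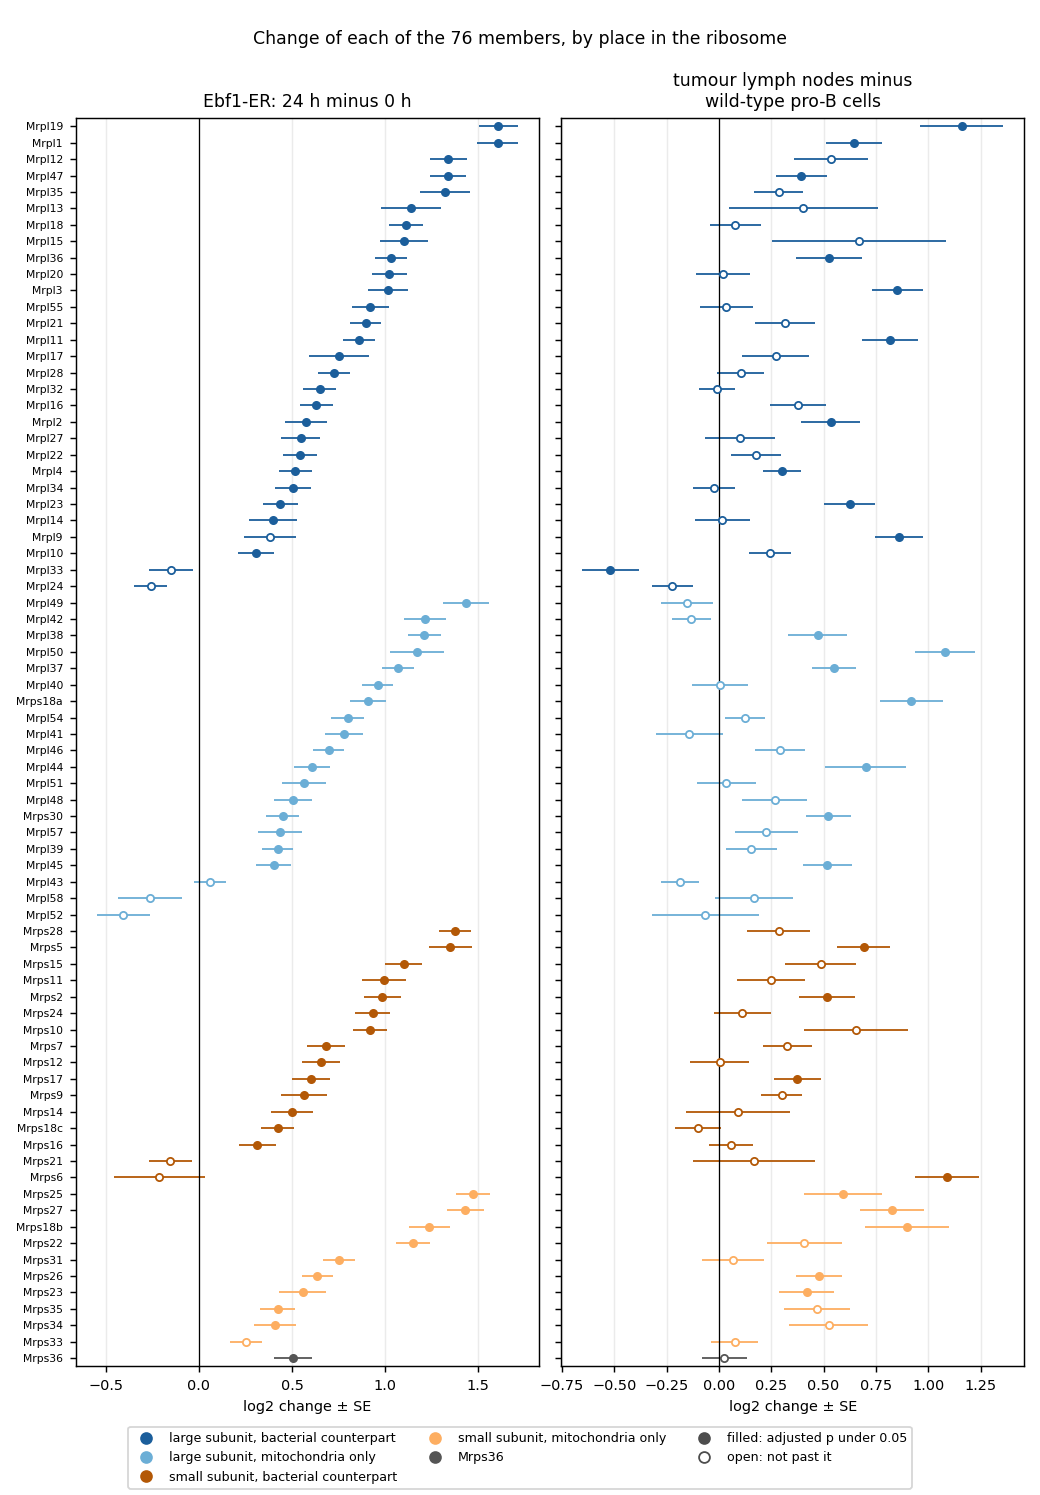
Log2 change ± limma SE of each of the 76 members at 24 h minus 0 h (left) and in tumour lymph nodes minus wild-type pro-B samples (right), grouped by place in the ribosome and sorted by the change at 24 h. Filled points passed an adjusted p of 0.05: 67 were higher at 24 h, and 26 were higher and 1 lower in the lymph nodes.

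Other parts of mitochondrial gene expression are given by lists chosen with earlier results known. Over all genes, 21% were called higher and 17.8% lower at 24 h. All 4 measured ribosomal components with other names were higher at 24 h, among them Ptcd3 (1.16 ± 0.11) and Dap3 (0.29 ± 0.09), a GTP-binding protein of the small subunit. Of 25 assembly factors, 16 were higher and 3 lower at 24 h, with Mrm3, an RNA methyltransferase, highest at 1.52 and Dhx30, an RNA helicase, lowest at -1.26. Of 13 translation factors 10 were higher and 0 lower, with Gfm1, an elongation factor, at 1.33 ± 0.09. Of 19 mitochondrial transfer RNA synthetases and related enzymes 14 were higher and 0 lower, with Qrsl1 at 2.24 ± 0.11. Of 11 genes that copy or transcribe mitochondrial DNA 7 were higher, such as Polrmt, its RNA polymerase, at 0.95 ± 0.09, and Ssbp1 was lower at -0.61 ± 0.12. The ribosomal proteins of the cytosol read otherwise: 11 of 42 were higher and 0 lower at 24 h, with a median of 0.04, beside 0.69 in the mitochondrial list. Of 77 respiratory chain and ATP synthase genes 45 were higher and 3 lower, with a median of 0.38. The difference between these lists was not tested.

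Of 9 regulators of nuclear genes for mitochondria, 4 were higher at each time, and 2, 1 and 3 were lower at 6, 12 and 24 h. Over all genes, 18.6%, 19.9% and 21% were higher and 16.4%, 19.9% and 17.8% lower at those times. Pprc1, a coactivator of the PGC-1 family, rose by 2.69, 2.86 and 2.39 at 6, 12 and 24 h, with an SE of 0.09 at each. Ppargc1b, of the same family, rose by 1.72, 2.17 and 1.19 (SE 0.11). The DNA-binding factor Gabpa rose by 0.33, 0.45 and 0.73 (SE 0.09), and its partner Gabpb1 by 0.45, 0.83 and 0.92 (SE 0.09). Nrf1 fell by 0.94 ± 0.21 at 6 h and by 1.09 ± 0.21 at 24 h, and its change of -0.35 at 12 h did not pass. Myc changed by 0.23 at 6 and 12 h, which did not pass, and fell by 0.93 ± 0.10 at 24 h. Yy1, a DNA-binding factor, fell by 0.35 ± 0.11 at 6 h and by 0.44 ± 0.11 at 12 h, and Esrra, a nuclear receptor, by 0.40 ± 0.11 at 24 h. Limma's adjusted p for Myc was 0.124, 0.116 and 0.000223 at the 3 times.

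Other marker lists moved with time as well, beside the shares of all genes given above. Of 11 cell division markers, 6 were higher and 2 lower at 6 h, 10 were higher at 12 h and 11 at 24 h. Their median was -0.84 and -0.76 in the 0 h arrays, -0.45 and -0.48 at 6 h, 0.31 and 0.37 at 12 h, and 0.59 and 0.45 at 24 h, so the 12 and 24 h arrays lay above the 6 h arrays. Of 7 stroma markers, 3 were lower at 6 h and 6 at 12 and 24 h, with 0 higher. Of 9 myeloid markers, 4, 5 and 4 were lower and 1, 1 and 2 higher at 6, 12 and 24 h. Centred values do not show which markers were absent, and the part of these lists in the result was not tested. Ebf1 activity, the drug, time in culture and handling cannot be told apart, since every later array differs from 0 h in all of them. With quantile-normalised arrays, 36 members were higher and 2 lower at 6 h, beside 9.65% and 7.44% of all genes, and 43 were higher at 24 h, beside 11.1%. Without the second 12 h array 1 member was lower at 12 h.

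**Figure D3:**
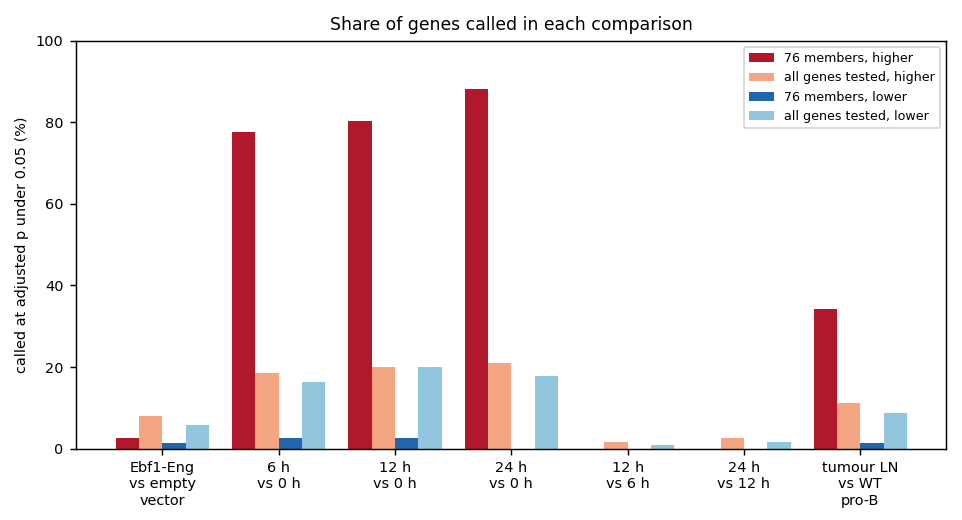
Share of the 76 members (dark bars) and of all 18194 genes (light bars) called higher (red) or lower (blue) in each comparison, in percent. The members stand at 77.6%, 80.3% and 88.2% higher at 6, 12 and 24 h and 34.2% in the lymph nodes, and at 2.63% with Ebf1-Engrailed.

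In the line 230238, where Ebf1-Engrailed is a repressor form, few members changed. Mrpl11 and Mrpl52 were called higher with Ebf1-Engrailed, 2 of 76 beside 7.93% of all genes, and Mrpl37 was called lower, 1 beside 5.67%. Mrpl11 was 0.36, 0.31 and 0.35 with Ebf1-Engrailed, against -0.31, -0.32 and -0.33 with empty vector. The groups stood well apart, with a change of 0.66 ± 0.09 (limma adjusted p 0.00373), and of its 4 probe sets 2 were called, by 0.66 and 0.56. Mrpl37, a large-subunit protein that bacteria lack, was -0.53, -0.42 and -0.29 with Ebf1-Engrailed, against 0.29, 0.35 and 0.42 with empty vector, and fell by 0.77 ± 0.10 (adjusted p 0.00412). Mrpl52 was 0.30, 0.12 and 0.35 with Ebf1-Engrailed, against -0.26, -0.22 and -0.12 with empty vector, and rose by 0.46 ± 0.10 (adjusted p 0.0296). The call of Mrpl52 was lost in 5 of the 6 fits that leave out 1 sample, and those of Mrpl11 and Mrpl37 in 0. These groups did not overlap either.

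**Figure D4:**
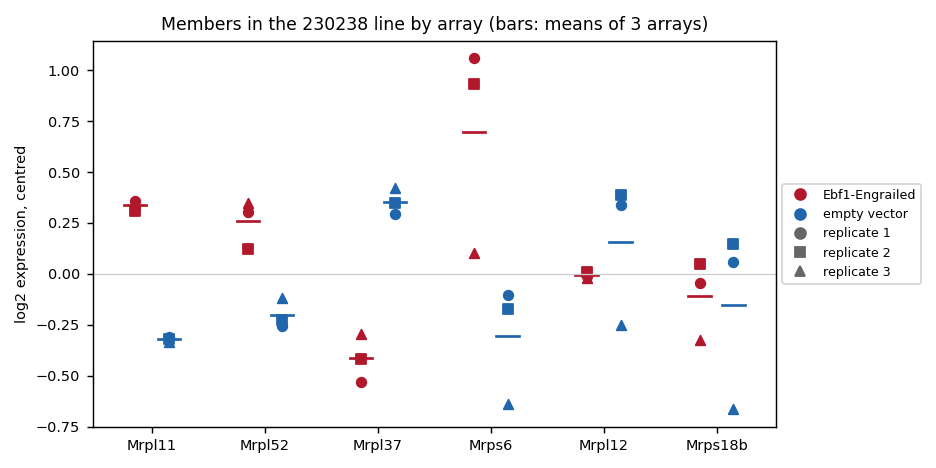
Centred log2 expression of 6 members in the 3 samples with Ebf1-Engrailed (red) and the 3 with empty vector (blue), with marker shapes for replicate numbers and bars for means. Mrpl11, Mrpl52 and Mrpl37 separate the groups, while Mrpl12 and Mrps18b overlap and empty-vector sample 3 is the lowest for Mrps6, Mrpl12 and Mrps18b.

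Mrps6, of the small subunit, was 1.06, 0.93 and 0.10 with Ebf1-Engrailed, against -0.10, -0.17 and -0.64 with empty vector. The change of 1.00 ± 0.27 was the largest of the members but did not pass (adjusted p 0.055). The median change over the members was -0.05, beside -0.02 over all genes, and 5 members were higher and 9 lower at an unadjusted p under 0.05. The changes of Mrpl43 (-0.00), Mrps24 (0.01) and Mrps7 (-0.01) were nearest to 0. With the replicate number as a block, which treats same-numbered samples as pairs, 5 members were higher, beside 10.3% of all genes, and 4 lower, beside 8.91% (limma). Mrpl11 (0.66), Mrpl15 (0.63), Mrpl52 (0.46), Mrps25 (0.42) and Mrps6 (1.00) rose, and Mrpl13 (-0.48), Mrpl23 (-0.50), Mrpl37 (-0.77) and Mrps23 (-0.42) fell.

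The median over the members was -0.00, -0.01 and -0.03 with Ebf1-Engrailed, against 0.04, 0.11 and -0.10 with empty vector. Empty-vector sample 3 was the lowest of the 6. Without it, 2 members were higher and 7 lower, beside 8.34% and 7.10% of all genes, with a median change of -0.15. Without Ebf1-Engrailed sample 3, 2 were higher and 5 lower, beside 10.1% and 7.38%. Without any single one of the other 4 samples, 1 was higher, beside 3.84% to 5.09% of all genes, and 1 lower, beside 2.39% to 3.67%. In the same comparison all 11 cell division markers fell, by 0.76 to 1.66, and 6 of 10 early B markers fell, beside 5.67% of all genes. The part of these markers in the result was not tested. Tfam, which packages mitochondrial DNA, fell by 0.84 ± 0.09 (adjusted p 0.00215) and Gabpb1 by 0.62 ± 0.11 (adjusted p 0.0123).

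In the tumour experiment 34.2% of the list was higher in the lymph nodes than in the samples labelled wild-type pro-B. Genotype, tumour state and the way of sorting differ together between these groups and cannot be told apart. An age is known here for the lymph node mice only. The calls were 26 higher, beside 11.3% of all genes, and 1 lower, beside 8.66%, with a median change of 0.30, beside 0.02 over all genes. By place, 10 of 29 and 7 of 20 of the large-subunit classes and 4 of 16 and 5 of 10 of the small-subunit classes were higher. The count rested on the few wild-type samples. Without the first of them 15 members were higher, beside 4.73% of all genes, and without the second 5, beside 2.58%, with 0 lower in either case. With quantile-normalised arrays 4 were higher, beside 1.63% of all genes. With the mouse as a random block over all arrays 31 were higher, beside 13.5%, and 1 was lower. Of the 27 calls, those of Mrpl3, Mrpl9, Mrpl11, Mrpl50 and Mrps6 were kept whichever mouse or wild-type sample was left out. Of 9 myeloid markers 7 were lower in the lymph nodes, with a median change of -2.53, of 3 erythroid markers 2 and of 7 stroma markers 3, and their part in the result was not tested.

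Mrpl50, of the large subunit, was -0.28 at the lowest, 0.14 in the median and 0.33 at the highest of the 8 lymph nodes, against -1.02 and -1.01 in the wild-type samples. The groups did not overlap and the change was 1.08 ± 0.14 (limma adjusted p 0.000679). Mrps6 ranged over -0.45, 0.08 and 0.18 (lowest, median, highest) in the lymph nodes, against -1.12 and -1.01 in the wild-type samples, a change of 1.09 ± 0.15 (adjusted p 0.000992). Mrpl19 ranged over -0.68, 0.06 and 0.16 in the lymph nodes, against -1.03 and -1.35 in the wild-type samples, a change of 1.16 ± 0.20 (adjusted p 0.00311). Mrps18a (0.92 ± 0.15), Mrps18b (0.90 ± 0.20) and Mrpl9 (0.86 ± 0.11) were the next largest. Mrpl33, a small protein of the large subunit, ran the other way, at -0.25, -0.03 and 0.35 in the lymph nodes, against 0.46 and 0.57 in the wild-type samples, and was lower by 0.52 ± 0.14 (adjusted p 0.0233). Mrps12 (0.00), Mrpl40 (0.00) and Mrpl32 (-0.01) changed least.

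Of the 26 members higher in the lymph nodes, 24 were also higher at 24 h of the time course, which is 92.3% of the tumour list and 35.8% of the 24 h list. These comparisons share no samples, and 88.2% of all members were higher at 24 h. Mrps6 and Mrpl9 were the exceptions. Mrpl9 was read by different probe sets in these experiments, as were some of the shared members, and Mrps6 by the same one. In the lymph nodes, 20 of 42 cytosolic ribosomal protein genes were also higher and 1 lower, with a median of 0.24. Among 77 respiratory chain genes, 8 were higher and 4 lower, with a median of 0.03. Over all genes, 11.3% were higher and 8.66% lower. Of 13 mitochondrial translation factors 8 were higher, led by Guf1 at 2.05 ± 0.22. Pprc1 was 1.54 ± 0.28 higher (adjusted p 0.00404) and Myc 1.68 ± 0.46 higher (adjusted p 0.0289). Of the 9 regulators these 2 were higher and 1 was lower, Ppargc1a, a coactivator of the PGC-1 family, at -2.94 ± 0.12.

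**Figure D5:**
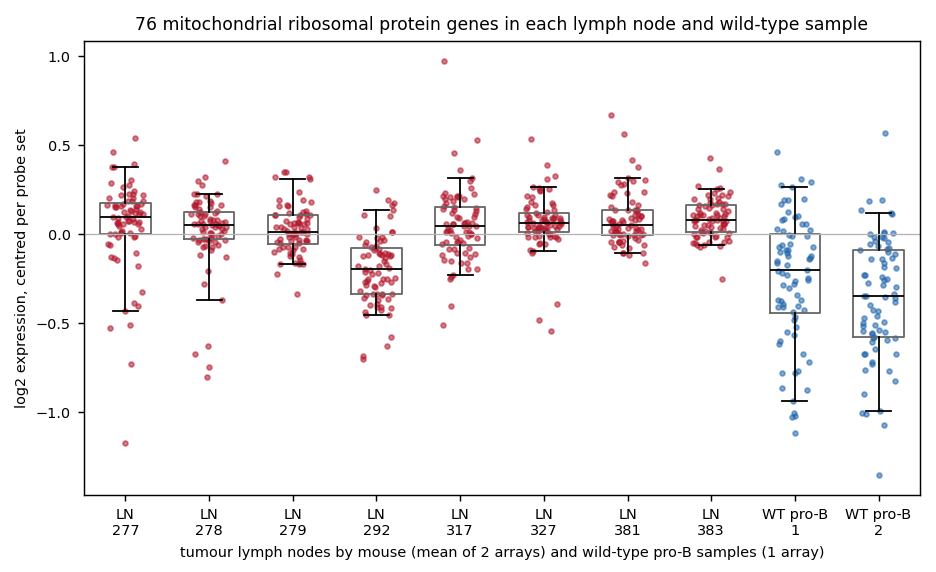
Centred log2 expression of the 76 members in the tumour lymph nodes (LN) of 8 mice, each the mean of 2 arrays (red), and in the 2 wild-type pro-B samples (blue). Points are members, boxes span the quartiles with the median, and whiskers the 5th to 95th percentile; the node of mouse 292 has the lowest median of the nodes, -0.20, and the wild-type samples are at -0.20 and -0.35.

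The lymph nodes differed among themselves. By limma's F test over the 16 arrays, 66 of 76 members differed between mice beyond the spread between the 2 arrays of a mouse, beside 59.7% of all genes. The node of mouse 292 was the lowest of the 8 for 48 members, 63.2% of them, beside 18.01% of all genes. Its median over the members was -0.20 (-0.18 and -0.23 in its 2 arrays), and the medians of the other 7 nodes lay between 0.01 and 0.10. Without that mouse 49 of 76 members differed between the other 7, 64.5% beside 57.4% of all genes, which is much nearer to the background than with it. Without it 36 were higher than in the wild-type samples, beside 12.8% of all genes, and 1 was lower. The median of the cell division markers in this node was -0.59 and -0.53, the lowest of all nodes, and that of the early B markers 0.57 and 0.64, the highest of them. The part of those markers in the result was not tested.

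The members with the largest F did not follow that mouse. Mrpl15 (F 94.9) was -1.17 in mouse 277, -0.75 in mouse 278 and 0.67 in mouse 381, a span that its 8 probe sets read as anything from 0.39 to 1.84. Of those 8 probe sets, 4 were lowest in mouse 277 and 3 in mouse 292. Mrpl52 (F 66.2) was lowest in mouse 277, at -0.73, and highest in mouse 278, at 0.41, with 3 of its 4 probe sets lowest in mouse 277. Mrps14 (F 37.7), of the small subunit, was lowest in mouse 278, at -0.63, on the probe set used, while its other 2 probe sets were lowest in mouse 292. Mrpl13 (F 43.8) was lowest in mouse 278 on the probe set used, and in mouse 292 on its other 3. Mrpl58 (F 38.7), which releases stalled ribosomes, and Mrps21 (F 34.1) were also lowest in mouse 278. Of the 2 probe sets of Mrpl58, 1 passed the test. Which probe set stood for a gene thus set the order of the mice for some members and not for others.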

How the data were processed

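RNA of 32 samples was hybridised to 1-colour Affymetrix arrays with 45101 probe sets. The authors made the deposited log2 values with RMA, a background correction with quantile normalisation, per the submitters' processing notes. No source used here states the base of the logarithm, which was taken to be 2. The median of every probe set is 0 within the line and time-course experiments, and that of 24.0% of them within the tumour experiment, so neither levels nor detection, nor differences across experiments, can be read.

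Names came from the platform's annotation, where 34958 probe sets had 1 gene, 932 several and 9211 none, and only the first were used. Of these, 34754 were matched to the gene table of GRCm38.p6. The most variable probe set per gene and experiment was kept, which favours large differences. Of the members, 43 used the same probe set in all 3 experiments. Groups came from the labels. Each experiment was fitted separately in limma 3.58.1 (lmFit, eBayes; R 4.3.3), with two-sided p-values adjusted by Benjamini-Hochberg over 18194 genes and a call at 0.05. Each lymph node entered that fit as the mean of its 2 arrays, and title numbers were read as mice. The fit was tested on simulated data.

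Named members were fixed genes of known role, the 6 largest called changes in each direction whose groups do not overlap, the 3 smallest changes, those with probe sets called in opposite directions and the 6 largest F. The members and lists were chosen with earlier results of these data known. Alternatives were the mean of all probe sets, array medians subtracted, quantile normalisation, leaving out the 50% of genes with the lowest variance, 1 fit over all groups, a threshold of 0.01, a replicate block and leaving out each sample. In the line, the deviations of same-numbered samples from their group means correlated at 0.29, 0.36 and 0.44. Ebf1-Engrailed samples 2 and 3 correlated best with the empty-vector sample of their own number, but sample 1 did not. Whether the numbers pair the samples is therefore not settled. No 2 arrays were identical, with a smallest median absolute difference of 0.0911. Tables were handled with Python 3.11.15 and pandas 2.3.3, and figures drawn with matplotlib 3.10.9.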

Additional observations from a re-analysis of the deposited data

Results flagged for a closer look

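Of 26 values tested over the 8 lymph nodes, 8 had an extreme mouse far from the other 7. Chance marks a single value about 1 time in 20. The count cannot be set against that rate, since the values share the same nodes and some members were named for differences in these arrays. In 7 of the 8 marked values mouse 292 was the lowest: the median over the 76 members at -0.197, Mrps18b at -0.699, Mrpl19 at -0.684, Mrpl12 at -0.579, Mrps6 at -0.453, Mrpl2 at -0.425 and Mrpl40 at -0.36. Mrpl2 only just reached the limit of the test. The arrays of that node also had the lowest cell division markers and the highest early B markers of the 8, and which of these goes with the ribosomal values was not tested. Mrps30 was highest in mouse 317, at 0.315.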

How the results depend on the processing

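Among the recomputed values for named members, 1776 kept their side of the threshold, 14 passed it newly and 66 no longer did. Of the values called in the main fit or the alternative, 0 changed sign. The sign of values called in neither was not compared. Causes of the changes below were not tested. With the mean of all probe sets, 5 members were lower with Ebf1-Engrailed, beside 6.91% of all genes, and 0 in the lymph nodes, beside 7.71%. In the time course 1 was lower at 6, 12 and 24 h, beside 14.8%, 18.5% and 15.6%, with medians of 0.55, 0.61 and 0.55. With quantile normalisation, 36 were higher at 6 h (median 0.36), beside 9.65% of all genes, and 43 at 24 h (0.43), beside 11.1%. At 12 h 1 was lower (0.46), beside 12.6%. Between 6 and 12 h 3 were higher (0.0928), beside 3.54%. Between 12 and 24 h 1 was higher, beside 4.89%, and 2 lower, beside 4.79%. In the lymph nodes 4 were higher, beside 1.63%, and 0 lower, beside 2.23% (0.18). With array medians subtracted, 2 were lower at 24 h, beside 18.7% of all genes. With the less variable genes left out, which leaves fewer genes to test, the medians were -0.20 with Ebf1-Engrailed and 0.59 in the lymph nodes. They were 0.83, 0.94 and 0.90 at 6, 12 and 24 h, and -0.0493 between 12 and 24 h. In the time course 1 was lower at each time, beside 31.3%, 35.4% and 32.6% of all genes left. In the lymph nodes 14 of the 31 members left were higher, beside 18.4%, and 30 of the 31 differed between nodes (96.8%, beside 91.1% of all genes left). With 1 fit over all groups, 6 were lower with Ebf1-Engrailed, beside 7.27% of all genes. At 0.01, 1 was higher with Ebf1-Engrailed, beside 3.72%. At that threshold 13 were higher in the lymph nodes, beside 5.22%, and 0 lower, beside 4.67%. With the replicate block, 5 were higher and 4 lower with Ebf1-Engrailed, beside 10.3% and 8.9% of all genes. In the time course the block gave 1 lower at 24 h, beside 17.1%, and no other count moved by more than 1.5 times. Whether the numbers pair the time-course samples is not settled. With 2 arrays at each time, their deviations from the mean mirror each other (correlations -0.25 to 0.15). Leaving out 1 sample gave 1 to 2 higher and 1 to 7 lower with Ebf1-Engrailed, with medians of -0.148 to 0.0236; medians of 0.64 to 0.79 at 6 h and 0.66 to 0.79 at 12 h; 1 to 3 lower at 12 h and 0 to 1 at 24 h; and 5 to 36 higher (15 without the first wild-type sample) and 0 to 1 lower in the lymph nodes. All calls kept their sign under these alternatives. The number of arrays, with 2 at each time and 2 wild-type samples, limits what could pass.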
